A study of Homo sapiens with 3 samples.

Results

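The integrated stress response and the unfolded protein response were followed in MDA-MB-231 cells through 46 genes, chosen by name: the sensors of the endoplasmic reticulum (ER), ATF4 and its partner transcription factors, their feedback genes, genes of amino acid synthesis and transport, tRNA synthetases, and genes of ER folding and degradation without HSP or DNAJ names. The choice was made with earlier results of these data known. The 46 genes were measured by 93 of the 41097 probe sets that carried exactly 1 gene symbol, among 54675 probe sets and 19775 named genes in all. MDA-MB-231 is an established human line from a basal-type breast cancer, usually described as lacking the estrogen receptor, and the labels name no genetic change in it. All 3 groups were first kept for 4 h in medium with 10% charcoal-stripped serum, which lacks most steroid hormones, and then treated for 3 h. One group received the vehicle (0.1% ethanol), the second estradiol (E2, the main natural estrogen) at 1 µM and the third tamoxifen, an antiestrogen, at 1 µM. Each group had 1 array by the labels, so no spread between replicates, interval or p-value can be given and every difference compares single columns.

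In the integrated stress response, kinases that sense ER stress, amino acid shortage, viral RNA or lack of heme phosphorylate the translation factor eIF2. General protein synthesis then slows while ATF4 is translated, and ATF4 with its C/EBP partners activates genes for amino acid supply, tRNA charging and, when stress lasts, the factor CHOP (DDIT3). The unfolded protein response joins the eIF2 kinase PERK (EIF2AK3) to 2 further ER sensors, IRE1 (ERN1) and ATF6, which switch on chaperones and the machinery that removes misfolded proteins. ATF4 itself is controlled largely at translation, which an array of RNA does not see.

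The deposited values are on a log2 scale and are centred, probe set by probe set, on an unstated baseline. They show differences between columns, not levels, and their base and direction (higher meaning more RNA) were assumed from the named method, RMA. The vehicle column varied less across probe sets (SD 0.20) than the estradiol (0.47) and tamoxifen (0.46) columns. Each difference from vehicle was therefore also computed with the vehicle value doubled. The comparison of tamoxifen with estradiol does not use the vehicle column. A brightness floor was set from the binary steps of the values, and 12067 named genes lay above it. Of the members, 43 lay above the floor, and NUPR1, VLDLR and SLC6A9 did not. Of 8 markers listed for basal and mesenchymal breast lines 7 lay above the floor (VIM, CD44, CAV1, AXL, FN1, ZEB1 and KRT18), all but SPARC. Of 6 luminal markers 3 did (ESR1, GATA3 and KRT8, but not PGR, FOXA1 or TFF1). The keratin KRT18 pairs with KRT8 and is not specific to basal or mesenchymal lines, so these counts do not separate the types. Of the 3 leukocyte markers with a probe set, 1 lay above the floor (PTPRC). The floor is lenient, since 20 of 135 olfactory receptor probe sets also passed it. It also misses some probe sets of abundant RNAs, since 105 of 117 ribosomal protein probe sets passed (89.7%). A 1.5-fold difference (0.58 on the log2 scale) was used as a size rule in place of a test.

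The promoters of several members hold the short DNA elements through which these pathways are known to act. The sequences shown are those of the 4 members with a match and the largest differences between a ligand and vehicle, 150 bases each, taken from RefSeq windows of build GRCh38.p14 that run from 250 bases before to 50 after a transcription start. Capitals mark the core of the C/EBP-ATF response element, TGATGNAA or its reverse complement, and in HERPUD1 also the second type of ER stress response element (ATTGG, 1 free base and CCACG).
ASNS promoter, chr7:97872409-97872558, minus strand: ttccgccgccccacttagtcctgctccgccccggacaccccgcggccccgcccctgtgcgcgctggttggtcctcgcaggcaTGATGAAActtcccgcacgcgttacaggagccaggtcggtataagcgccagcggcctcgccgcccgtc
ATF3 promoter, chr1:212565196-212565345, plus strand: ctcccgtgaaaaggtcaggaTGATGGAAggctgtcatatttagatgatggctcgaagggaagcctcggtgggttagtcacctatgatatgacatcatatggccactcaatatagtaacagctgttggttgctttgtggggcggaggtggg
CHAC1 promoter, chr15:40953242-40953391, plus strand: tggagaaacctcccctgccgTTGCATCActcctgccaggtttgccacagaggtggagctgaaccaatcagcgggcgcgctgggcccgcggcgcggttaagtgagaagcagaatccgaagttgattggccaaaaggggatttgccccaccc
HERPUD1 promoter, chr16:56931946-56932095, plus strand: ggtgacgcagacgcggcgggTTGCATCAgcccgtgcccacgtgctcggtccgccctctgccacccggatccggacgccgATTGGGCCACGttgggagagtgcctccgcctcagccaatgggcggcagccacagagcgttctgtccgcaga

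The table of promoters held 65 windows for 41 of the 46 members and 35116 windows for 27305 genes. Both strands were searched. TGATGNAA was found in the windows of 11 members (26.8% of the 41) and of 4.46% of all genes. These were ASNS, ATF3, CHAC1, HERPUD1, AARS1, CEBPG, GARS1, JDP2, SLC1A5, SLC3A2 and SLC7A1, with the match after the start in the last 2. The first type of ER stress response element (CCAAT, 9 free bases and CCACG) was found in 4 members, all of ER folding, against 0.0916% of all genes. Those 4 sites are shown on the strand of each gene with the fixed letters in capitals, so that a site in the opposite orientation reads CGTGG first.
PDIA6, chr2:10812853-10812871: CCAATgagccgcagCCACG
CANX, chr5:179698778-179698796: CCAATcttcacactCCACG
CALR, chr19:12938384-12938402: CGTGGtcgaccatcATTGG
CRELD2, chr22:49918554-49918572: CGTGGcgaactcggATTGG
The second type was found in HERPUD1, SDF2L1 and HYOU1 (0.0696% of all genes), and TGACGTGG, a letter pattern of the XBP1 and ATF6 element, in HYOU1 alone (0.927%), where it overlaps a match to the second type. Several of these promoters are textbook examples of the elements and the members were named with that knowledge, so the shares describe the letters and are not independent evidence.

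The members and the other gene lists were chosen with earlier results of these data known. Their shares beside all genes, here and below, are therefore descriptions and not independent evidence. Between the ligands, the members leaned to lower values with tamoxifen than with estradiol. Of the 43 above the floor 35 were lower (81.4%), against 53.1% of all 12067 genes, and the median difference was -0.22 against -0.02. In a bulk culture, less RNA per cell and fewer cells with that RNA cannot be told apart. Past 1.5-fold, 7 members were lower and none higher with tamoxifen, where 2.2% of all genes were lower and 1.57% higher. These 7 were CHAC1, ATF3, PPP1R15A, SESN2, DDIT3, TRIB3 and JDP2, all of them transcription factors or feedback and effector genes. PHGDH, a gene of serine synthesis, lay at the other end (0.52), followed by PSAT1, whose probe sets disagreed in sign.

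**Figure D1:**
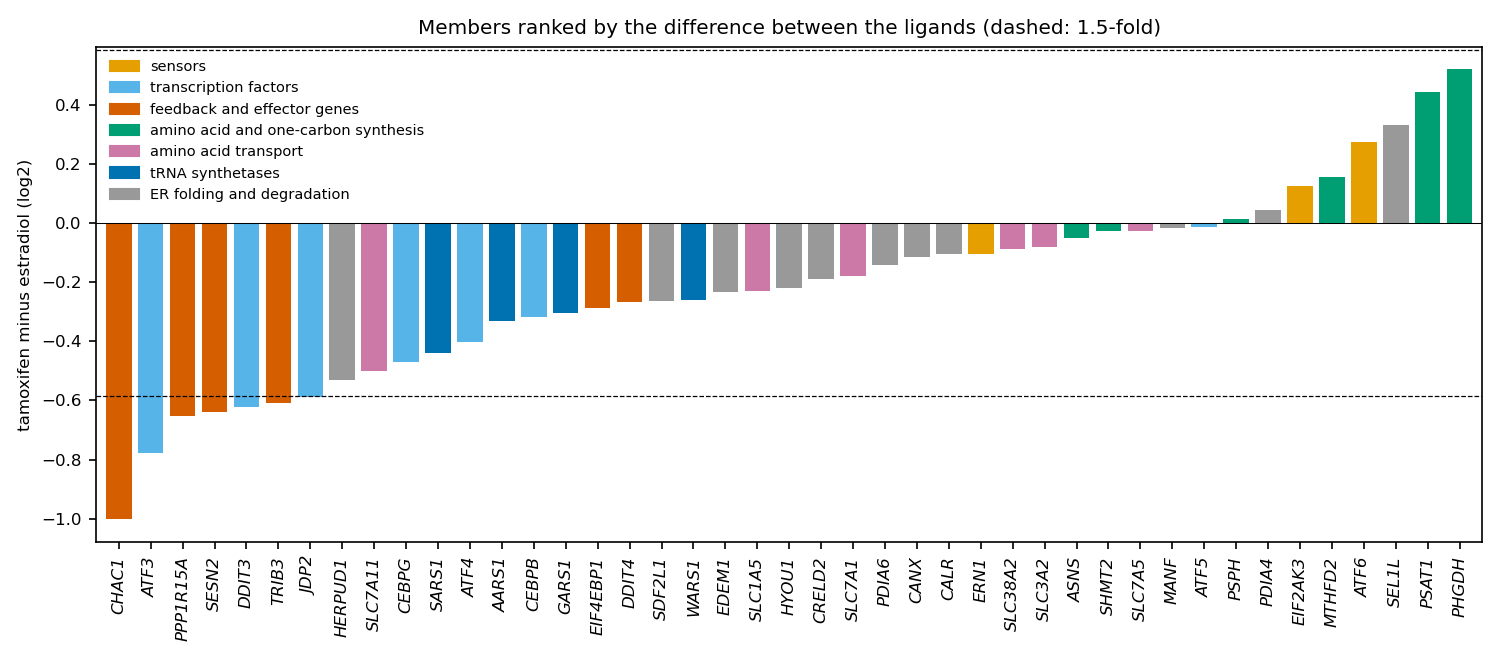
Tamoxifen minus estradiol (log2) for each of the 43 members above the floor, ranked, with bars coloured by role and dashed lines at 1.5-fold. Bars run from CHAC1 at -1.0 to PHGDH at 0.52, and 35 of the 43 are below 0.

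**Figure D2:**
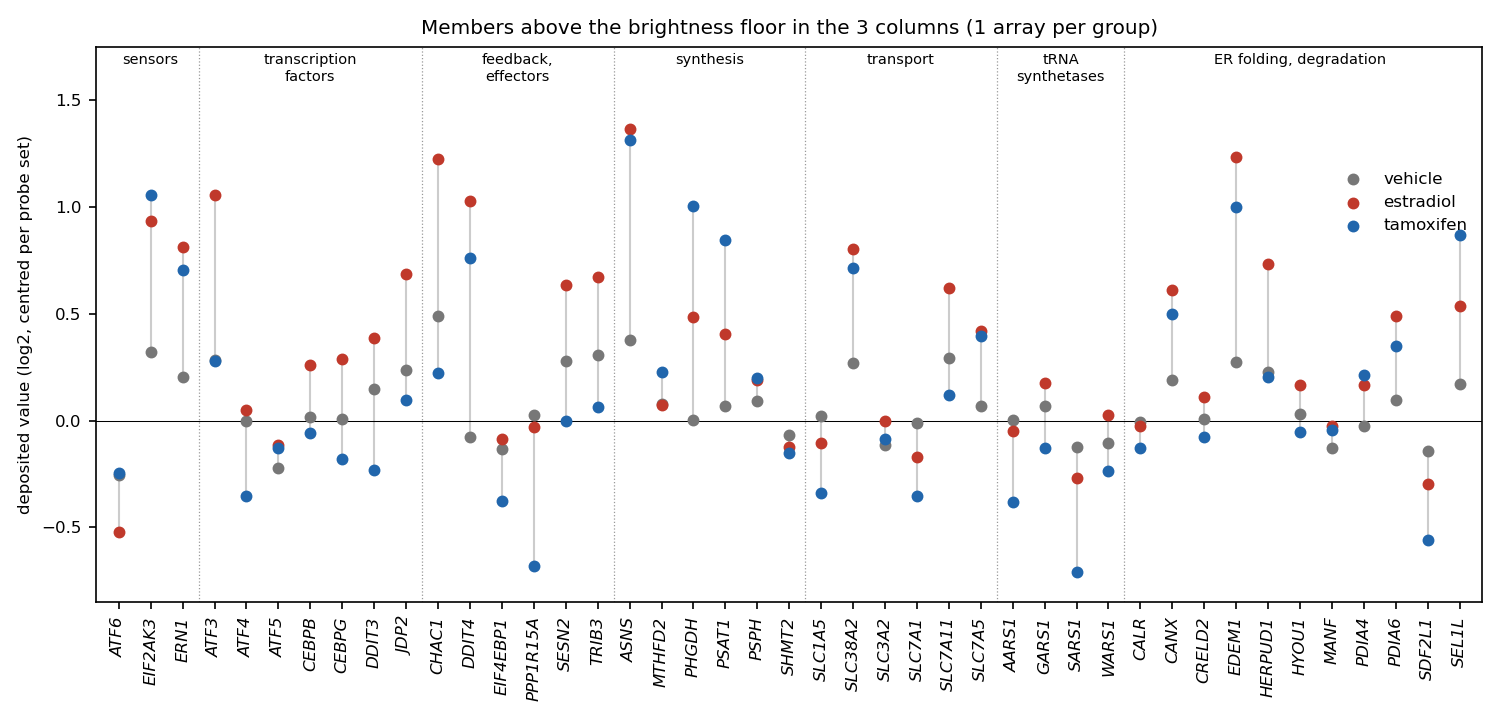
Deposited values (log2, centred per probe set) of the 43 members above the floor in the vehicle, estradiol and tamoxifen columns, grouped by role, 1 point per column and no error bars because each group had 1 array. In 6 of 7 transcription factors the tamoxifen point is the lowest and the estradiol point the highest.

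Among the transcription factors, ATF4 itself stood at -0.0034 with vehicle, 0.05 with estradiol and -0.35 with tamoxifen on its single probe set, which lay in the brightest band (levels of 8 or more). The vehicle and estradiol columns were alike and the tamoxifen column was 1.32-fold below estradiol (log2 difference -0.40), short of the size rule. DDIT3, which encodes the stress factor CHOP, stood at 0.15, 0.39 and -0.23 in the same order and was 1.54-fold lower with tamoxifen than with estradiol (-0.62). ATF3, an early stress-induced factor of the same family, stood at 0.29, 1.05 and 0.28, so that the estradiol column was high and the other 2 were alike. Its difference was 0.77 for estradiol minus vehicle and -0.78 for tamoxifen minus estradiol. Both rest on 1 of its 3 probe sets, the others being below the floor, and lay inside the rule when all 3 were averaged (0.35 and -0.30). JDP2, a repressor that binds the same sites as ATF3, stood at 0.24, 0.69 and 0.10, with a tamoxifen minus estradiol difference of -0.59 that rests on 1 of its 2 probe sets.

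Among the members, the C/EBP partners CEBPG and CEBPB followed the same order of columns, with no difference past the rule. CEBPD, a C/EBP gene outside the members, did not, with -0.15, 0.46 and 0.12. It passed the rule for estradiol minus vehicle (0.61, and 0.76 with the vehicle doubled). CEBPG, which forms dimers with ATF4, had values of 0.01, 0.29 and -0.18 with vehicle, estradiol and tamoxifen, and its 2 probe sets, both above the floor, gave nearly the same tamoxifen minus estradiol difference (mean -0.47). CEBPB had values of 0.02, 0.26 and -0.06. ATF5, whose RNA is also translated under stress, showed no such order, with -0.22, -0.12 and -0.13 on its 1 probe set in the brightest band. Its 4 probe sets above the floor disagreed in sign in every comparison, from -0.016 to 0.42 for tamoxifen minus estradiol. NUPR1, a stress-induced chromatin regulator, had deposited values of 1.15, 2.67 and 2.14, but its single probe set lay below the floor. Over the 7 factors above the floor the median tamoxifen minus estradiol difference was -0.47. All 7 differences were negative, but that of ATF5 was only -0.015 and rests on the 1 probe set used.

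The feedback and effector genes showed the widest gap between the ligands. CHAC1, an enzyme that degrades glutathione and a sensitive target of ATF4, had values of 0.49 with vehicle, 1.23 with estradiol and 0.22 with tamoxifen. It was 1.67-fold higher with estradiol than with vehicle (0.74) and 2.00-fold lower with tamoxifen than with estradiol (-1.0). TRIB3, a pseudokinase that restrains ATF4 and CHOP, had values of 0.31, 0.67 and 0.06 and was 1.53-fold lower with tamoxifen than with estradiol (-0.61). SESN2, a stress-induced inhibitor of mTORC1 signalling, had 0.28, 0.63 and -0.0032, and both of its probe sets were lower with tamoxifen than with estradiol (-0.58 and -0.70). In each of these 3 genes the vehicle value lay between the ligands.

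PPP1R15A (GADD34), the phosphatase subunit that reverses eIF2 phosphorylation, differed from that pattern. It had values of 0.03 with vehicle and -0.03 with estradiol, and of -0.68 with tamoxifen, so that the tamoxifen column alone stood apart. It was 1.63-fold lower with tamoxifen than with vehicle (-0.71), and its second probe set, in a dimmer band, gave -0.61. DDIT4 (REDD1), another inhibitor of mTORC1, went the other way, from -0.08 with vehicle to 1.03 with estradiol and 0.76 with tamoxifen. Its estradiol minus vehicle difference of 1.11 (2.15-fold) was the largest among members above the floor, and the ligands differed by -0.27. EIF4EBP1, a translation repressor, stood at -0.13, -0.09 and -0.37. VLDLR, a lipoprotein receptor gene induced through ATF4, was below the floor with values of 1.0, 2.57 and 2.48. Over the 6 genes above the floor the tamoxifen minus estradiol median was -0.62, and 4 of 6 passed the rule downward.

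The enzymes of amino acid synthesis did not share the lower tamoxifen values. ASNS (asparagine synthetase), whose promoter is shown above, had values of 0.38 with vehicle, 1.37 with estradiol and 1.32 with tamoxifen. The ligand columns were alike and both lay above vehicle, by 0.99 (1.98-fold) and 0.94 (1.91-fold). A second ASNS probe set, in the dimmest band, gave 0.12 and -0.15 for the same differences. PHGDH, the first enzyme of serine synthesis, had 0.0042, 0.49 and 1.01, and was 2.00-fold higher with tamoxifen than with vehicle (1.0) and higher with tamoxifen than with estradiol by 0.52. Its value did not depend on the doubling of the vehicle, which was close to 0.

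PSAT1, the next enzyme of the serine pathway, had values of 0.07, 0.40 and 0.85 on its probe set in the brightest band. Its other probe set, in the 4 to 8 band, had 0.89, 1.99 and 1.49. Both placed the ligands above vehicle: the estradiol differences were 0.34 and 1.10 and the tamoxifen differences 0.78 and 0.60. However, they disagreed on the ligands themselves, at 0.44 and -0.50, and their mean there was -0.03. The last enzyme of the pathway, PSPH, had means of 0.09, 0.19 and 0.20 over a pair of probe sets of opposite sign, at 0.36 and -0.17 for estradiol minus vehicle and 0.43 and -0.22 for tamoxifen minus vehicle. The mitochondrial one-carbon enzymes SHMT2 (-0.07, -0.12 and -0.15) and MTHFD2 (0.08, 0.07 and 0.23) differed little between columns. The median over the 6 enzymes was 0.21 for estradiol minus vehicle, 0.46 for tamoxifen minus vehicle and 0.08 for tamoxifen minus estradiol.

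Of the 6 amino acid transporters above the floor, none passed the size rule in any comparison by its gene value, though single probe sets did. SLC38A2, a stress-induced carrier of small neutral amino acids, came nearest against vehicle, at 0.27, 0.80 and 0.72 (differences of 0.54 and 0.45). Its 3 probe sets ranged from 0.22 to 0.71 for estradiol minus vehicle. SLC7A11, the cystine carrier, had 0.29, 0.62 and 0.12, with a tamoxifen minus estradiol difference of -0.50. Its 3 probe sets above the floor ranged from -0.82 to -0.18 in that comparison. SLC7A5, the light chain of the large neutral amino acid carrier, had 0.07, 0.42 and 0.39, while its partner SLC3A2 had -0.12, -0.0035 and -0.09. SLC7A1 (-0.01, -0.17 and -0.35) and SLC1A5 (0.02, -0.11 and -0.34) were lowest with tamoxifen. However, the SLC7A1 values average a pair of probe sets that gave -0.68 and -0.0039 for tamoxifen minus vehicle. Another SLC7A1 probe set above the floor, in a dimmer band, was lowest with estradiol (0.12, -0.36 and 0.02). SLC6A9, a glycine carrier, lay below the floor with -0.19, 0.12 and 0.54.

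The 4 tRNA synthetases, which charge tRNAs with amino acids, were all lowest with tamoxifen. SARS1 had values of -0.12 with vehicle, -0.27 with estradiol and -0.71 with tamoxifen, and its tamoxifen minus vehicle difference of -0.59 lay just past the rule. Its second probe set, in a dimmer band, gave -0.22, so that the mean of both did not pass. AARS1 had 0.0028, -0.05 and -0.38, GARS1 0.07, 0.18 and -0.13, and WARS1 -0.11, 0.03 and -0.23. The median was 0.03 for estradiol minus vehicle, -0.29 for tamoxifen minus vehicle and -0.32 for tamoxifen minus estradiol.

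The 3 ER sensors differed among themselves. EIF2AK3 (PERK) had values of 0.32 with vehicle, 0.93 with estradiol and 1.06 with tamoxifen, 1.53-fold and 1.66-fold above vehicle (0.61 and 0.73), on 1 of 2 probe sets. Its other probe set, in the dimmest band, gave -0.05 and -0.33. The mean of both lay inside the rule (0.28 and 0.20). ERN1 (IRE1) had 0.21, 0.81 and 0.71, and its estradiol minus vehicle difference of 0.60 averaged probe sets at 0.41 and 0.80. ATF6 had means of -0.26, -0.52 and -0.25. Its 4 probe sets, all above the floor, disagreed in sign, from -0.77 to 0.24 for estradiol minus vehicle, so that no direction can be given for ATF6.

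Among the 11 genes of ER folding and degradation, 2 genes of degradation stood out against vehicle. EDEM1, a lectin that sends misfolded glycoproteins to degradation, had values of 0.28, 1.23 and 1.0, and was higher by 0.96 with estradiol (1.94-fold) and by 0.73 with tamoxifen (1.65-fold). SEL1L, a scaffold of the same machinery, had 0.17, 0.54 and 0.87, and its 3 probe sets above the floor were all higher with tamoxifen than with vehicle (0.58 to 0.78). HERPUD1, whose promoter holds both elements, had the column order of DDIT3 and CHAC1, with 0.23, 0.73 and 0.20 and a tamoxifen minus estradiol difference of -0.53. The 3 columns were thus highest with estradiol in HERPUD1 and EDEM1 and with tamoxifen in SEL1L.

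Chaperones and oxidoreductases of the ER differed less. The disulfide isomerase genes PDIA6 (0.09, 0.49 and 0.35) and PDIA4 (-0.03, 0.17 and 0.21) and the lectin chaperone gene CANX (0.19, 0.61 and 0.50) were higher with both ligands by 0.20 to 0.42. CALR, the soluble relative of CANX, was level at -0.01, -0.02 and -0.13. HYOU1, CRELD2 and MANF, which are commonly used as reporters of ER stress, differed from vehicle by 0.10 to 0.14 with estradiol and by -0.09 to 0.09 with tamoxifen. SDF2L1 had -0.14, -0.30 and -0.56. The 4 genes with the ER stress response element shown above differed by -0.02 to 0.42 between estradiol and vehicle and by -0.19 to -0.10 between tamoxifen and estradiol. None of the 11 passed the rule between the ligands, and their median there was -0.14.

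Against vehicle, 7 of 43 members were at least 1.5-fold higher with estradiol (16.3%, against 5.83% of all genes) and none was lower (2.65%). These were DDIT4, ASNS, EDEM1, ATF3, CHAC1, EIF2AK3 and ERN1. The median over members was 0.24, against 0.02 over all genes, and 33 of 43 differences were positive (76.7%, against 53.3% of all genes). With the vehicle doubled, 3 of the 7 (DDIT4 at 1.18, EDEM1 at 0.68 and ASNS at 0.61) stayed past the rule (6.98%, against 4.39% of all genes higher and 1.92% lower). The median was then 0.21, against 0.07 over all genes, and 79.1% of members were positive, against 61.1% of all genes. CHAC1 (0.25), EIF2AK3 (0.29), ERN1 (0.40) and ATF3 (0.48) did not.

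With tamoxifen, 7 members were higher than vehicle (16.3%, against 6.97% of all genes) and 2 lower (4.65%, against 4.33%). Those higher were PHGDH, ASNS, DDIT4, PSAT1, EIF2AK3, EDEM1 and SEL1L, and those lower PPP1R15A and SARS1. The median was -0.08 against 0.02 over all genes, and 24 of 43 differences were negative (55.8%, against 47.9% of all genes). With the vehicle doubled, PHGDH (1.0), DDIT4 (0.92) and PSAT1 (0.71) stayed past the rule upward. That share of 6.98% was no higher than the 7.14% of all genes. Downward, PPP1R15A (-0.73) stayed past the rule and CHAC1 (-0.75) joined it (4.65%, against 3.64% of all genes). ASNS, at 0.56, then lay just within the rule, as did SEL1L (0.53), EDEM1 (0.45), EIF2AK3 (0.41) and SARS1 (-0.46) within wider margins. The ligand comparisons share the vehicle column, so that the 4 members higher with both (ASNS, DDIT4, EDEM1 and EIF2AK3) are given as values and not as an overlap.

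**Figure D3:**
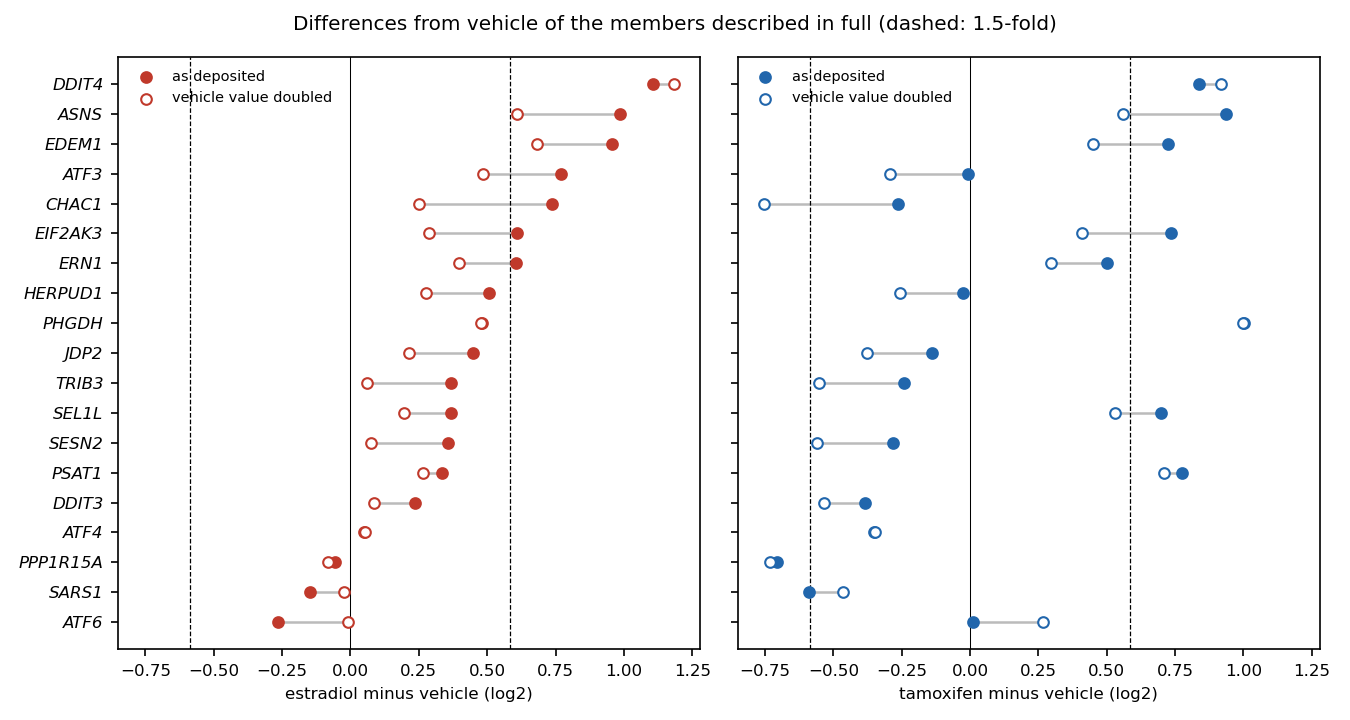
Estradiol minus vehicle and tamoxifen minus vehicle (log2) of the 19 members described in full, as deposited (filled) and with the vehicle value doubled (open), with dashed lines at 1.5-fold. DDIT4, PHGDH, PPP1R15A and ATF4 hardly move between the settings, whereas CHAC1 moves from 0.74 to 0.25 with estradiol and from -0.26 to -0.75 with tamoxifen.

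The vehicle values of the members ran with those of the ligands. Across the 43 members, which share arrays and the unstated baseline, vehicle and estradiol values correlated with Pearson's r = 0.85 and vehicle and tamoxifen values with r = 0.55. The sign was the same in 36 and 31 members. No such values over all genes are given, so these cannot be read as particular to the members. By arithmetic, the doubling lowers each difference from vehicle by the vehicle value itself. It therefore moves members with a high vehicle value, such as ASNS, CHAC1, EIF2AK3 and ERN1. Members near 0 in that column, such as DDIT4, PHGDH, PPP1R15A and ATF4, hardly move. Why the vehicle column is narrower was not tested.

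In the order of the columns, 16 of 43 members (37.2%) had tamoxifen lowest and estradiol highest with vehicle between, against 13.1% of all genes. These included 6 of 7 transcription factors (ATF3, ATF4, CEBPB, CEBPG, DDIT3 and JDP2), the effectors CHAC1, EIF4EBP1, SESN2 and TRIB3, SLC7A11, GARS1, WARS1, and the ER genes CRELD2, HERPUD1 and HYOU1. A further 11 (25.6%, against 18.5%) had vehicle lowest and estradiol highest, among them ASNS, DDIT4, EDEM1 and ERN1. No member had the order with estradiol lowest and vehicle highest, which 13.2% of all genes had. With the vehicle doubled the first order held 17 members (39.5%, against 14.2%). The order ignores the size of a difference, and many of these differences are smaller than the spread between probe sets of 1 gene given below.

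**Figure D4:**
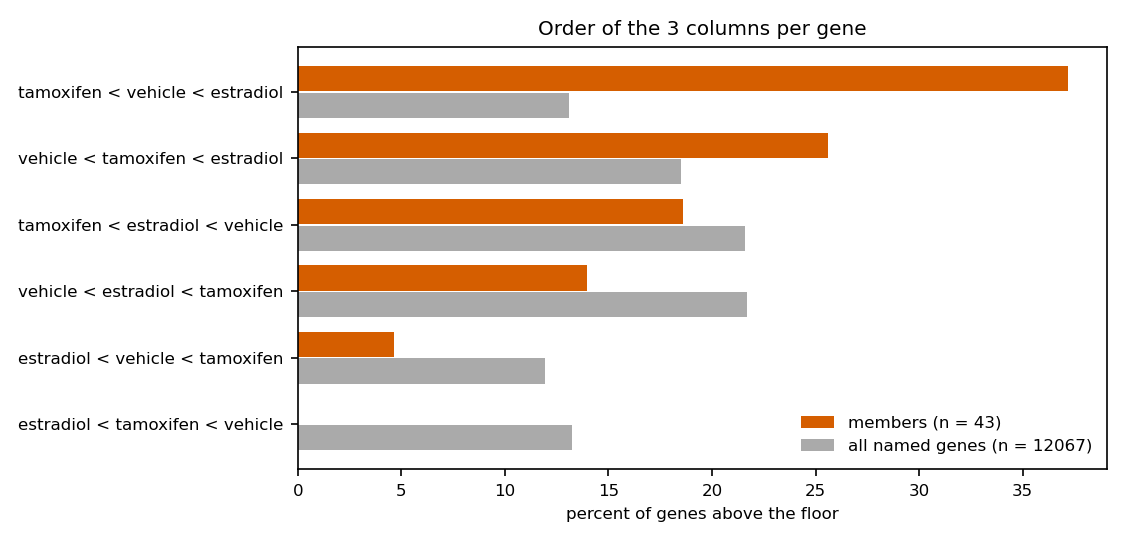
Percent of the 43 members (orange) and of all 12067 named genes above the floor (grey) with each order of the vehicle, estradiol and tamoxifen columns. The order tamoxifen, vehicle, estradiol held 37.2% of members and 13.1% of all genes.

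The members with a TGATGNAA match in a promoter window were set beside those without. All 11 with a match, from ASNS at -0.05 to CHAC1 at -1.0, had lower values with tamoxifen than with estradiol, with a median of -0.33. In SLC7A1, however, the 3 probe sets above the floor disagreed in sign. Among the 28 members above the floor with a window and no match, 21 were lower and the median was -0.13. Of all genes 53.1% were lower. The trait was not particular to TGATGNAA. All 4 members with the first type of ER stress response element were also lower (median -0.13). So were all 3 with the second type (median -0.26), 1 of which also holds TGATGNAA, and the 1 with TGACGTGG. Genes outside the members with a match were not examined. Against vehicle the medians were 0.28 with and 0.24 without a match for estradiol, and -0.19 and 0.09 for tamoxifen. Members without a match include ATF4 targets such as DDIT3, TRIB3 and PSAT1, and a match in these letters is a description of the window, not of binding.

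Agreement between probe sets of 1 gene gave the only measure of technical spread. Over the 4232 genes with several probe sets in 1 band above the floor, the pooled SD within a gene was 0.32 for estradiol minus vehicle, 0.32 for tamoxifen minus vehicle and 0.25 for tamoxifen minus estradiol. It holds differences between transcripts and probe quality on the same arrays and no spread between cultures. Of the 19 members with several probe sets above the floor, all probe sets had 1 sign in 12, 14 and 10 members in these comparisons. Between the ligands, SESN2, CEBPG, PPP1R15A, SARS1, SLC7A11, WARS1 and SEL1L were among those whose probe sets had 1 sign, and ATF6, CANX and PSAT1 among those that did not.

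**Figure D5:**
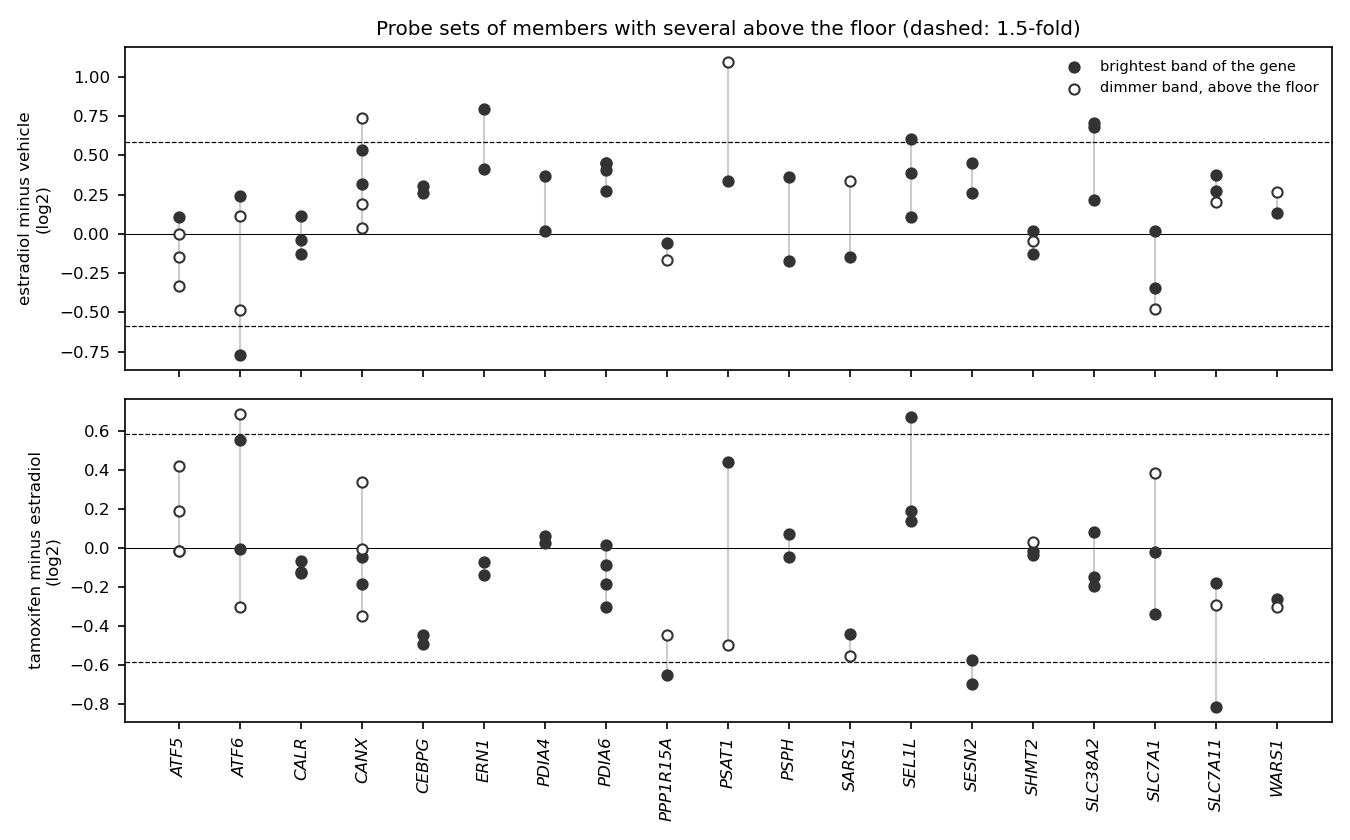
Estradiol minus vehicle (top) and tamoxifen minus estradiol (bottom), in log2, for every probe set above the floor of the 19 members with several, filled where it lies in the brightest band of its gene and open where it lies in a dimmer one. The PSAT1 probe sets lie at 0.44 and -0.50 in the lower panel, on either side of 0, while those of SESN2 lie at -0.58 and -0.70.

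Other genes of these pathways, from 4 lists outside the 46, lay close to the background between the ligands when pooled. The list of other ATF4 targets, given below, leaned lower with tamoxifen. Of 73 with a probe set 68 lay above the floor. Tamoxifen minus estradiol had a median of -0.02 over them, the same as over all genes. Of the 68, 39 were negative (57.4%, against 53.1% of all genes). Past 1.5-fold, 2 were higher (2.94%, against 1.57%) and none lower (against 2.2%). Against vehicle, 6 were higher with estradiol (8.82%, against 5.83% of all genes) and 8 with tamoxifen (11.8%, against 6.97%). None was lower with either ligand (against 2.65% and 4.33% of all genes). With the vehicle doubled, 5 were higher with estradiol (7.35%, against 4.39% of all genes). With tamoxifen 3 were then higher (4.41%, against 7.14%), a share below that of all genes. With each ligand 1 was lower (1.47%, against 1.92% with estradiol and 3.64% with tamoxifen). These were HSP90B1 with estradiol (-0.62) and IMPACT, a regulator of the eIF2 kinases, with tamoxifen (-0.63). Among ER chaperones and targets of XBP1, the chaperone gene HSPA5 (BiP) differed from vehicle by 0.13 (estradiol) and 0.14 (tamoxifen), and HSP90B1 (GRP94) by -0.39 and -0.26. DNAJB9, a cochaperone induced through IRE1, was higher by 1.0 and 0.85, the protease gene MBTPS2, which cleaves ATF6, by 0.94 and 0.69, and the oxidase gene ERO1B by 0.49 and 0.89. With the vehicle doubled these became 0.69 and 0.54 for DNAJB9, 0.44 and 0.19 for MBTPS2, and 0.47 and 0.87 for ERO1B, so that MBTPS2 no longer passed the rule with either ligand, nor DNAJB9 with tamoxifen. XBP1, the target of IRE1, had values of -0.02, 0.37 and -0.05, and thus lay in the order of DDIT3 and HERPUD1.

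The 17 other ATF4 targets above the floor had a median tamoxifen minus estradiol difference of -0.16, against -0.02 over all genes. Of these, 11 were negative (64.7%, against 53.1% of all genes), and none passed the rule downward. CTH, an enzyme of cysteine synthesis, lay above vehicle by 1.17 (estradiol) and 0.93 (tamoxifen). VEGFA, an angiogenic factor with many inducers besides ATF4, was higher by 1.48 and 1.14, and the secreted stress marker GDF15 by 1.28 and 1.23. With the vehicle doubled, CTH differed by 0.60 and 0.36, VEGFA by 0.67 and 0.33 and GDF15 by 0.54 and 0.49, so that GDF15 passed the rule with neither ligand, and CTH and VEGFA only with estradiol. STC2, a secreted glycoprotein induced by ER stress, differed by -0.12 and 0.64 and was the one gene of this list past the rule between the ligands (0.75). PPP1R15B, the constitutive relative of PPP1R15A, was higher by 0.33 and 0.66, so that the phosphatase subunits lay on opposite sides of vehicle with tamoxifen. Of 14 eIF2 kinases, eIF2 subunits and their regulators, EIF2AK4, the kinase that senses amino acid shortage, was the one past the rule between the ligands (0.61).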

How the data were processed

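Biotin-labelled RNA was read on Affymetrix HG-U133 Plus 2 arrays, per the labels' protocols. The deposited log2 values were processed with RMA (version not given in the sources used here), per the submitters' processing notes, and are centred per probe set on an unstated baseline. The number of arrays limits the precision. Brightness bands (below 2, 2 to 4, 4 to 8, 8 or more) were read from the finest binary step of each probe set over the 3 columns, with the vehicle column shifted by 1 step and values under 0.001 ignored. The floor was the 4 to 8 band. The steps were tested on simulated data, where some probe sets landed 1 band too bright. The simulated vehicle column was an average of 2 arrays, which the shift by 1 step assumes and the labels do not state. The simulation therefore does not test that assumption. Probe sets were named through the platform annotation: 1801 with several symbols and 11777 unlisted were left out. Probe sets of a gene were averaged within the brightest band they reached, and columns were subtracted. Members described in full were those past 1.5-fold in any comparison and 11 fixed genes; other genes named were the 8 with the largest difference and HSPA5, HSP90B1 and XBP1. Any further gene was named with its values in view. Members and lists were chosen with earlier results of these data known. Alternatives were a doubled vehicle, other floors, all probe sets, no cross-reacting probe set types, centring and 2-fold. Python 3.11.15 and pandas 2.3.3 were used.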

Additional observations from a re-analysis of the deposited data

How the results depend on the processing

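Tamoxifen minus estradiol kept 0 members higher past 1.5-fold in all alternatives run, and its median stayed between -0.23 and -0.14. The count of 7 lower there became 2 in the brightest band alone, 4 with all probe sets averaged (without ATF3, JDP2 and PPP1R15A) and 1 at 2-fold. The count of 7 higher with estradiol than with vehicle became 3 with the vehicle doubled, 0 in the brightest band alone, where none of the 7 has a probe set, 4 with all probe sets averaged (3 of the 7 and PSAT1), 4 without the cross-reacting types and 1 at 2-fold, and the median of 0.24 became 0.11 in the brightest band alone and 0.10 without the cross-reacting types. The count of 7 higher with tamoxifen than with vehicle became 3 with the vehicle doubled and 1 in the brightest band alone. It became 5 with all probe sets averaged (without ASNS and EIF2AK3), 3 without the cross-reacting types and 1 at 2-fold. The count of 2 lower became 1 with all probe sets averaged (without SARS1), 3 without the cross-reacting types and 0 at 2-fold. The brightest band and the exclusion of cross-reacting types leave fewer genes, and for the other shifts the cause was not tested. No called difference of a described member changed sign in any alternative run. No paired analysis was possible because each group has 1 array, and with no replicate no array could be left out.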

Other observations

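The 13 other cytosolic tRNA synthetase genes with a probe set, all above the floor, did not share the lower tamoxifen values of SARS1, AARS1, GARS1 and WARS1 to the same extent. None of them passed 1.5-fold in any comparison. Their median tamoxifen minus estradiol difference was -0.02, the same as over all genes, with a range from -0.29 (CARS1) to 0.15. Even so, 10 of 13 were negative (76.9%, against 53.1% of all genes). Over the 4 members the median was -0.32 and the range -0.44 to -0.26. Against vehicle the medians of the 13 other genes were -0.0025 with estradiol and -0.04 with tamoxifen, and those of the 4 members 0.03 and -0.29. The difference between these sets of genes was not tested.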
